A study of Mus musculus with 6 samples.

Results

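Interferon response and antigen presentation genes were followed in the ventricles of mice that overexpress miR-499, a microRNA encoded within a heart muscle myosin gene. The set held 32 genes chosen by their known roles: 4 transcription factors, 3 sensors of foreign RNA, 14 antiviral genes, 2 guanylate-binding GTPases, 6 genes of antigen presentation, and 3 genes for chemokines and the checkpoint ligand Cd274. Each gene was represented by the probe set that is paired with exactly 1 gene symbol and has the highest mean over all arrays, and 29 of the 32 were measured in this way, out of 19938 genes. The probe sets of Isg15 and Gbp2 are each paired with a second gene, and Ifi44 was not found among the probe sets named here.

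The study compared 3 transgenic mice (TG-17) with 3 wild-type littermates (WT) on postnatal day 17, and ventricular RNA of each mouse was hybridised to its own Affymetrix array of the mouse gene ST design. The transgene was injected into FVB/NCrl embryos, and it expresses miR-499 from the alpha myosin heavy chain (Myh6) promoter, which is active in heart muscle cells, so that RNA of every cell type of the ventricle was measured while the transgene is driven in cardiomyocytes. TG-17 is a single transgenic line with the lower miR-499 level of those made in the study, and its mice were not exposed to stress or to an immune stimulus. Values are log2 values per probe set, and a difference of 1 is a doubling. Sex is not given in the labels, but sex-linked genes were read alike in all 6 mice. Xist, on the X chromosome, was at 11.15 to 11.31. On the Y chromosome, Kdm5d was at 4.78 to 5.07, Uty at 3.83 to 4.03 and Eif2s3y at 3.39 to 3.70. High Xist beside low Y-linked values is the female pattern, and it was seen in both groups.

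Interferons are signalling proteins that cells release on infection. Type I interferons act through the interferon-stimulated response element of many promoters, which a complex holding Stat2 and Irf9 binds, whereas interferon gamma acts through the gamma-activated site. The genes switched on in this way block viral replication, cut proteins into peptides and load them onto major histocompatibility complex (MHC) class I for display to T cells, and attract leukocytes. In the heart they are expressed at a low resting level by muscle cells, by endothelium and by resident macrophages.

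The mature transgene product and promoter stretches of 5 members that hold a motif are printed first, 5′ to 3′, from RefSeq on GRCm38.p6. The mature miR-499-5p (chr2:155622893-155622913, plus strand) is shown with its seed, bases 2 to 8, in capitals.
miR-499-5p: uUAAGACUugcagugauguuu
Promoters of 24 of the 32 members were at hand, each running from 250 bases before a transcript start to 50 bases after it. The core of the interferon-stimulated response element, GAAANNGAAA on either strand, stood in 12 of these 24, compared with 3.99% of 27025 genes and 3.44% of 32851 promoters. The gamma-activated site, TTCNNNGAA, whose letters read alike on both strands, stood in 4 of the 24, compared with 9.55% of all genes and 8.3% of all promoters. Bst2 held both motifs, which overlap there. The stretches below come from members that varied most between mice or had an unadjusted p under 0.05, with the motif in capitals. Of the other members at such a p, Oas2 and Nlrc5 were not among the promoters at hand, and neither motif was in the window of Cd274. The stretches are from chr2:122147493-122147612 (B2m, plus strand), chr3:142559947-142560066 (Gbp3, plus), chr19:34583335-34583454 (Ifit3, plus), chr17:34198042-34198161 (Psmb8, plus) and chr12:26456508-26456627 (Rsad2, minus).
B2m: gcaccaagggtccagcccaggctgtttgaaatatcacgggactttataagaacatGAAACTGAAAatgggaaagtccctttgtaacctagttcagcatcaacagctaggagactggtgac
Gbp3: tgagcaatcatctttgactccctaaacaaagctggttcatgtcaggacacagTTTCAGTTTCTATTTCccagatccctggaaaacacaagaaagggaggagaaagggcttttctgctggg
Ifit3: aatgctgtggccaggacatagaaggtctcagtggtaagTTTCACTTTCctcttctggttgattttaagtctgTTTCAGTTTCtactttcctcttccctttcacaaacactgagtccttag
Psmb8: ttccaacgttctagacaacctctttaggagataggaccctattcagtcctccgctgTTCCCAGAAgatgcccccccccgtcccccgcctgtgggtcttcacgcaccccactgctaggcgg
Rsad2: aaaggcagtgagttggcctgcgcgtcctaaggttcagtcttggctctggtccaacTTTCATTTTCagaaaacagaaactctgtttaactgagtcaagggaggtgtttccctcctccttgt
The Psmb8 stretch carries the gamma-activated site and the others carry response element cores, with 2 of them overlapping in Gbp3 and 2 set apart in Ifit3. These matches describe the letters only, and binding was not measured.

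The transgene product checked the labels. The probe set of Mir499 was 5.48, 5.34 and 5.68 in the WT mice and 9.31, 9.33 and 8.87 in the TG-17 mice, a 12.7-fold difference (log2 fold change 3.67, SE 0.15, adjusted p = 0.00772 by limma). Ventricular muscle markers were at high values, with Myh6 at 13.90 to 14.00 and Myl2 at 13.59 to 13.77 over the 6 mice. Pearson's r between arrays, taken across probe sets, was 0.990 or higher, and no array stood apart.

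The members showed small differences, mostly toward lower values in TG-17, and none of the 29 passed either cut-off of the study. At both cut-offs the study reported more transcripts, out of fewer interrogated, than passed here. With limma, 0 members had log odds of a change (B) above 0, a cut-off that 0.341% of genes and 0.366% of the 35556 probe sets passed, and 0 had an adjusted p under 0.05, which 0.00562% of probe sets had. At an unadjusted p under 0.05, 5 members were lower and 0 were higher, namely Cd274, Nlrc5, Ifit3, Oas2 and Psmb8. These 5 are 17.2% of the members, and 8.76% of all genes were lower and 6.65% higher at the same threshold. In 6 members, or 20.7%, every TG-17 mouse lay below every WT mouse, against 13.6% of all genes, and in 0 members did every TG-17 mouse lie above, against 12.2% of all genes. The mean was lower in TG-17 in 20 of 29 members (69%), compared with 55.6% of all genes, and the median log2 fold change was -0.096, compared with -0.018 over all genes. The scale of the arrays bears on these counts, since the median over all probe sets was 6.93 to 6.95 in WT and 6.89 to 6.91 in TG-17. After each array was centred on its own median, 2 members (6.9%) were lower and 0 higher at an unadjusted p under 0.05, where 4.04% of all genes were lower and 12.9% higher. The members without overlap were then 3 lower (Ifit3, Nlrc5 and Cd274) and 3 higher (Ddx58, Ifi35 and Parp14), while 6.65% of all genes were lower without overlap and 21.7% higher. Centring moves all genes of an array alike: the median of the members became -0.045 and that of all genes 0.033. The gap of 0.078 between these medians therefore cannot change with centring, and its constancy is no support. The gap was 0.038 after a second quantile normalization and 0.024 without the second WT mouse.

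**Figure D1:**
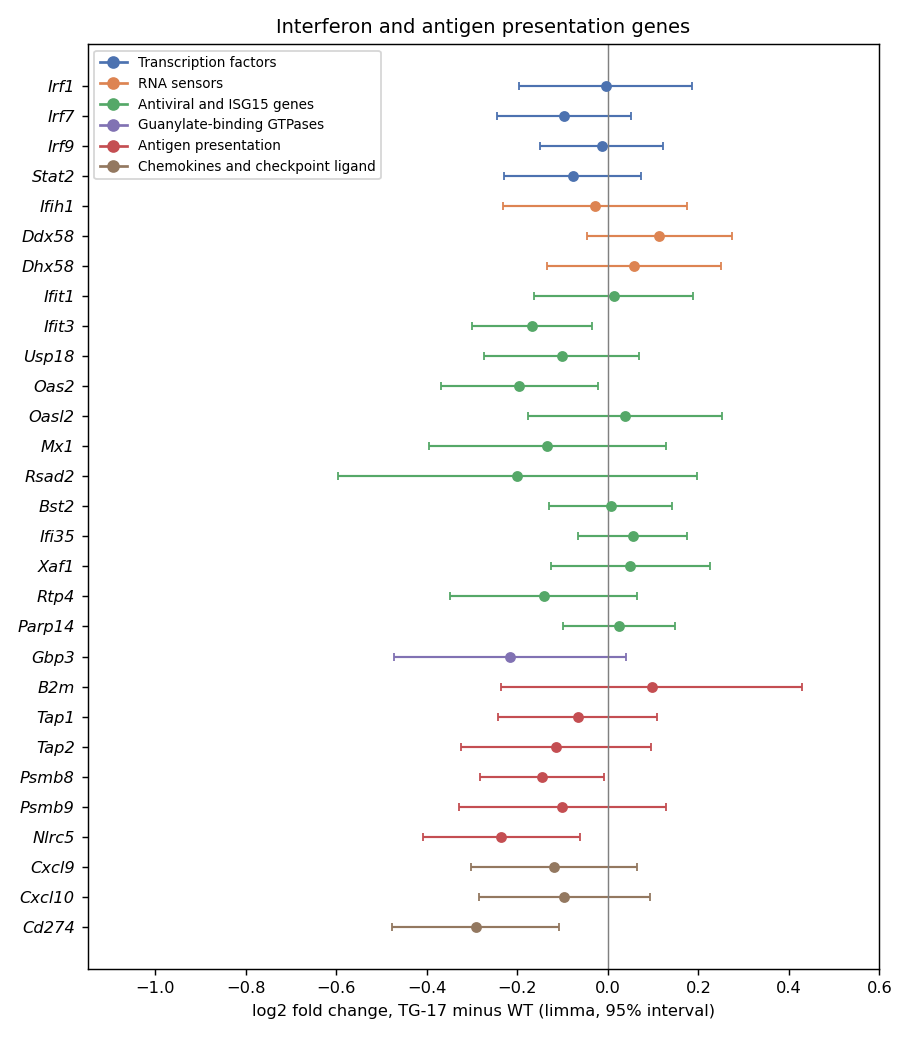
Log2 fold change (TG-17 minus WT, horizontal axis) with its 95% interval from limma for each of the 29 measured members, coloured by role. The values run from -0.29 for Cd274 to 0.11 for Ddx58, and the intervals of 5 members lie wholly below 0.

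The precision of 3 mice against 3 bounds what could have been seen. Half-widths of the 95% intervals ran from 0.12 to 0.40 on the log2 scale, with a median of 0.18. Over all members the intervals reached at most 1.51-fold lower (Rsad2) and 1.35-fold higher (B2m). A lower value in ventricular RNA can come from fewer cells of a type or from less RNA per cell, and these cannot be told apart.

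The transcription factors of the response differed little between the groups. Irf7, the main amplifier of type I interferon production, was 7.36, 7.27 and 7.37 in WT and 7.25, 7.31 and 7.16 in TG-17, so the groups overlapped. Stat2 and Irf9, partners in the complex that binds the response element, had log2 fold changes of -0.08 and -0.01. Irf1, a factor induced by interferon gamma, had one of -0.01, and a second probe set of Irf1 had -0.16 with an adjusted p of 0.508 by limma. All 4 factors had a lower mean in TG-17, as had 55.6% of all genes. With centring on the array median Irf1 and Irf9 were higher, at 0.05 and 0.04, and 0 of the 4 had an unadjusted p under 0.05 by limma.

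Of the 3 sensors of viral RNA, 2 had a higher mean in TG-17. Ddx58 (RIG-I), which recognises short RNA ends, was 8.41, 8.58 and 8.54 in WT and 8.61, 8.58 and 8.69 in TG-17, with a log2 fold change of 0.11 (SE 0.066, adjusted p = 0.450 by limma). It was the highest fold change among the members, and a TG-17 value fell within the WT range. Dhx58 (LGP2), a regulator of these sensors, had 0.06, and Ifih1 (MDA5), which recognises long RNA, had -0.03, or 0.02 with centring on the array median.

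Among the 12 antiviral genes measured, 6 had a lower and 6 a higher mean in TG-17, where 55.6% of all genes had a lower mean. Ifit3, a member of a family that binds viral RNA, was 5.80, 5.86 and 5.81 in the WT mice and 5.71, 5.59 and 5.67 in the TG-17 mice. The groups did not overlap, and the log2 fold change was -0.17 (SE 0.055, 95% interval -0.30 to -0.03, adjusted p = 0.269 by limma). Its values were near those of the liver gene Alb, 5.45 to 5.72 over the 6 mice, and signal over background could not be judged. Ifit3 has a near-identical neighbour, Ifit3b, from which an array may not separate it. Ifit1, of the same family and with the same motif in its promoter, had a log2 fold change of 0.01.

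Oas2, an oligoadenylate synthetase that activates RNA decay, was 6.69, 6.65 and 6.74 in WT and 6.43, 6.43 and 6.63 in TG-17. The third TG-17 mouse lay only 0.02 below the lowest WT mouse, and the log2 fold change was -0.20 (SE 0.072, 95% interval -0.37 to -0.02, adjusted p = 0.294 by limma). Its relative Oasl2 had a log2 fold change of 0.04.

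Rsad2 (viperin), an enzyme that makes a chain-terminating nucleotide, varied most between mice of a group. It was 7.83, 8.01 and 7.54 in the WT mice and 7.86, 7.54 and 7.38 in the TG-17 mice, with a pooled SD of 0.24, and the groups overlapped widely. Its log2 fold change was -0.20 (95% interval -0.60 to 0.20, adjusted p = 0.586 by limma). Mx1, a GTPase that blocks viral ribonucleoproteins, was also variable, at 5.02, 4.82 and 5.22 in WT and 4.85, 4.86 and 4.95 in TG-17. The table gives no detection calls, so that it is not known whether so low a value lies above background. The other antiviral genes, Usp18, Rtp4, Bst2, Ifi35, Xaf1 and Parp14, had log2 fold changes between -0.14 (Rtp4) and 0.05 (Ifi35), and their groups overlapped. Ifi35 was the least variable of all members, with a pooled SD of 0.032.

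Gbp3, a guanylate-binding GTPase that acts against intracellular microbes, was 7.60, 7.92 and 7.57 in WT and 7.56, 7.43 and 7.46 in TG-17. All TG-17 mice lay below all WT mice, although by only 0.02 at the nearest pair, and the second WT mouse stood well above the other WT mice. The log2 fold change was -0.22 (SE 0.106, 95% interval -0.47 to 0.04, adjusted p = 0.382 by limma). The guanylate-binding genes are a family of close copies in a cluster, which an array may not fully separate.

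Antigen presentation held 5 members with a lower mean in TG-17 of 6 measured, where 55.6% of all genes had a lower mean. The median log2 fold change of the 6 was -0.11. Nlrc5, the transactivator of MHC class I genes, was 10.80, 10.68 and 10.62 in the WT mice and 10.55, 10.39 and 10.45 in the TG-17 mice. The groups did not overlap, and the log2 fold change was -0.24 (SE 0.071, 95% interval -0.41 to -0.06, adjusted p = 0.259 by limma). Psmb8, a subunit of the immunoproteasome, was 7.51, 7.59 and 7.61 in WT and 7.46, 7.36 and 7.45 in TG-17, again without overlap, with a log2 fold change of -0.15 (SE 0.056, 95% interval -0.28 to -0.01, adjusted p = 0.304 by limma).

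Psmb8 lies in the MHC region of chromosome 17 beside Psmb9, another immunoproteasome subunit, and beside Tap1 and Tap2, which together form the pump that carries peptides into the endoplasmic reticulum. Psmb9 was 8.64, 8.66 and 8.58 in WT and 8.72, 8.46 and 8.39 in TG-17, so that its highest and its lowest value both came from TG-17 mice. Tap1 and Tap2 had log2 fold changes of -0.07 and -0.12, with both groups overlapping. Both were highest in the second WT mouse and lowest in the third.

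B2m, the light chain of MHC class I, was 10.71, 11.25 and 10.93 in the WT mice and 11.03, 11.02 and 11.12 in the TG-17 mice. The WT mice spanned the whole TG-17 range, with an SD of 0.27 compared with 0.056 (n = 3 in both groups). It was the only one of the 6 antigen presentation members with a higher mean in TG-17, by 0.10 on the log2 scale (95% interval -0.24 to 0.43, adjusted p = 0.755 by limma). Without the second WT mouse the log2 fold change was 0.24 with an unadjusted p under 0.05, and without the first WT mouse it was -0.03, so that single libraries decide its value. H2-K1 and H2-D1, the classical heavy chains that pair with B2m, were not found with 1 gene symbol.

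**Figure D2:**
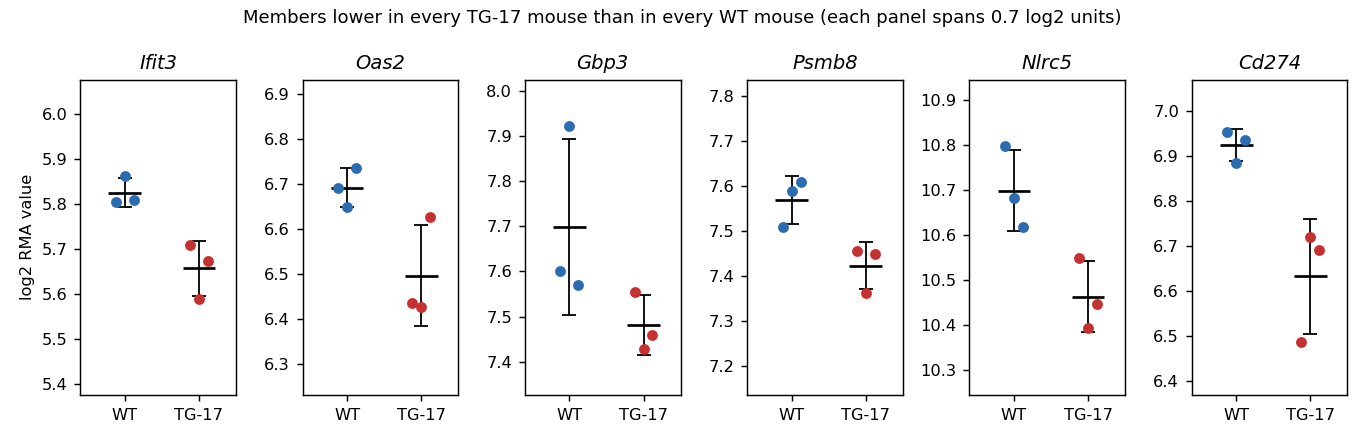
Log2 RMA values (vertical axis) of the 6 members in which the groups did not overlap, with points for single mice, thick lines for means and bars for the SD (n = 3 mice per group). The gap between the groups is widest in Cd274 and narrowest in Gbp3.

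Cd274 (PD-L1), a ligand that restrains T cells and is induced by interferon gamma, had the lowest log2 fold change of the members. Its probe set was 6.95, 6.89 and 6.94 in the WT mice and 6.49, 6.72 and 6.69 in the TG-17 mice. The WT mice lay within 0.07 of each other and above all TG-17 mice, and the log2 fold change was -0.29 (SE 0.076, 95% interval -0.48 to -0.11, adjusted p = 0.234 by limma, B = -2.13). Of the 29 members, Cd274 had an unadjusted p under 0.05 in all 14 alternative settings that refitted it, and its log2 fold change then ran from -0.34 to -0.22. The chemokines Cxcl9 and Cxcl10, neighbours on chromosome 5 that draw T cells through a shared receptor, had log2 fold changes of -0.12 and -0.10. Their groups overlapped, and the highest Cxcl10 value, 6.01, came from the second WT mouse.

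Nlrc5 was covered by 19 probe sets, more than any other member. The set used for the gene stood apart in level, with a WT mean of 10.70, while the other 18 had WT means of 4.16 to 8.09. Whether it reports the same transcript as the others was not tested. The log2 fold change was below 0 in 17 of the 19 sets and above 0 in 2, where 55.6% of all genes had a lower mean. Its median was -0.13 and its range -0.40 to 0.06. At an unadjusted p under 0.05, 3 of the 19 were lower and 0 higher, beside 8.76% and 6.65% of all genes. The groups did not overlap in 4, all lower in TG-17, beside 13.6% of all genes lower without overlap. B was above 0 in 0 of the sets. Probe sets of a gene are read from the same RNA samples and are not replicates.

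**Figure D3:**
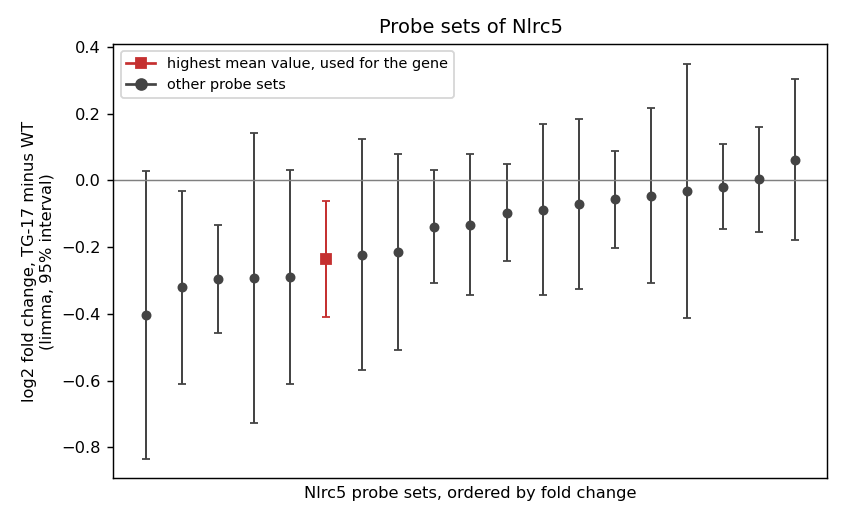
Log2 fold change (TG-17 minus WT, vertical axis) with its 95% interval from limma for each of the 19 probe sets of Nlrc5, ordered by fold change. The square marks the probe set used for the gene, at -0.24, and 17 of 19 points lie below 0, where 55.6% of all genes had a lower mean.

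A shared shift was looked for in each mouse. For each member the mean of the WT mice was subtracted, so that the WT mice are centred near 0 by construction, and the median over the 29 members was taken. This median was -0.001, 0.031 and -0.033 in the WT mice and -0.062, -0.085 and -0.072 in the TG-17 mice. Each TG-17 mouse thus lay below each WT mouse, and over all genes the medians of the TG-17 mice were -0.003, -0.023 and -0.016. After each array was centred on its median, the shifts of the TG-17 mice were -0.022, -0.030 and -0.013 and those of the WT mice -0.009, 0.028 and -0.021, so the groups overlapped, while the medians over all genes were 0.036, 0.032 and 0.043 in the TG-17 mice.

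**Figure D4:**
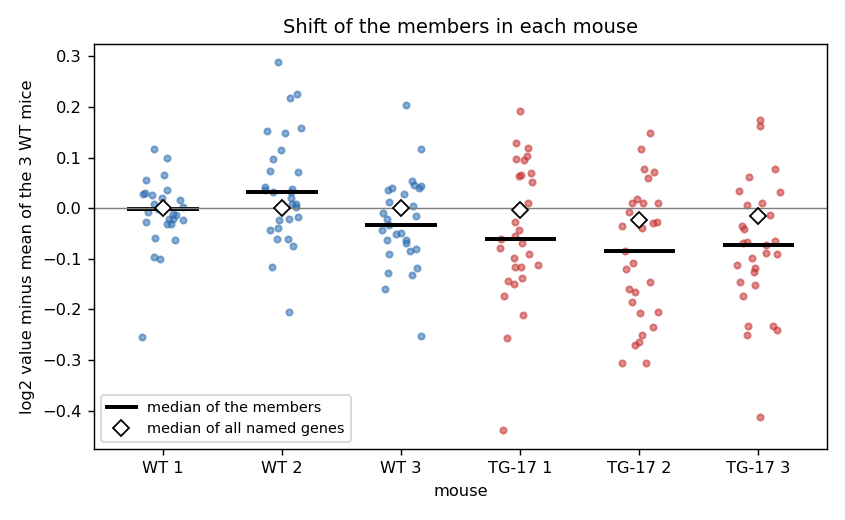
Deviation of each member from the mean of the 3 WT mice (log2 values, vertical axis) in each mouse, with points for the 29 members, bars for their median and diamonds for the median of all 19938 named genes. The bars of the TG-17 mice sit at -0.062, -0.085 and -0.072, and the members of each mouse spread far more widely than the medians differ.

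The second mouse of each group stood at opposite ends. The second WT mouse held the highest value of the 6 mice in 9 of 29 members (Ifih1, Ifit3, Rsad2, Rtp4, Gbp3, B2m, Tap1, Tap2 and Cxcl10), compared with 19.8% of all genes. The second TG-17 mouse held the lowest value in 9 members (Stat2, Ifit3, Oas2, Oasl2, Rtp4, Gbp3, Psmb8, Nlrc5 and Cxcl9), compared with 19.8% of all genes. In the remaining mice 3 to 6 members were highest and 3 to 5 lowest. Without the second WT mouse the median log2 fold change of the members was -0.039, with -0.016 over all genes, and without the second TG-17 mouse it was -0.068, with -0.011 over all genes. In the latter setting 1 member, Cd274, had an unadjusted p under 0.05, or 3.45% of the members, and 6.08% of all genes were lower at that threshold. The spread within groups was otherwise that of the array, with a median pooled SD of 0.087 over the members and 0.085 over all genes.

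**Figure D5:**
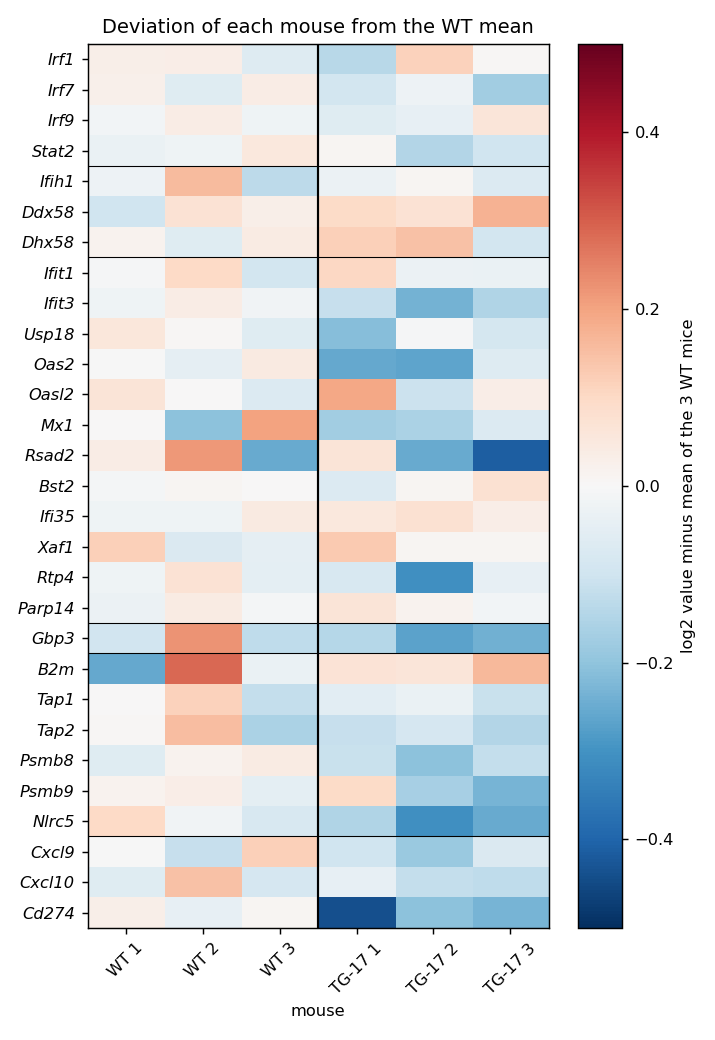
Deviation of each member (rows, grouped by role) from the mean of the 3 WT mice, in log2 units by colour, for each mouse (columns). Blue cells prevail in the TG-17 columns, with 18, 20 and 21 of 29 members below the WT mean, compared with 16, 10 and 18 in the WT columns. Of all genes, 51.1%, 56.6% and 54.3% were below it in the TG-17 mice and 49.5%, 49.5% and 50.3% in the WT mice.

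The rest of the pathway was read from lists of ligands, receptors, signal transducers, negative regulators, further interferon-stimulated genes and further antigen presentation genes. Of 101 such genes 91 were measured. With limma, 1 was lower at B above 0 and 0 were higher, and at an unadjusted p under 0.05, 11 were lower (12.1%) and 5 higher. Over all genes 0.341% had B above 0, and 8.76% were lower and 6.65% higher at that p. After each array was centred on its median the latter counts were 6 lower and 12 higher, and the shares of all genes moved likewise, to 4.04% lower and 12.9% higher.

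The gene at B above 0 was Ifna2, an interferon alpha, at 6.65, 6.60 and 6.61 in WT and 6.26, 6.34 and 6.21 in TG-17. Its log2 fold change was -0.35 (SE 0.055, adjusted p = 0.205 by limma, B = 0.20), and B was above 0 in 0 of the 9 alternative settings tried for it. Interferon alpha genes are near-identical copies, so the probe set is not certain to report Ifna2 alone. Among the 6 ligands measured, Ifne, an epithelial type I interferon, was also lower at an unadjusted p under 0.05, with a log2 fold change of -0.26. Its values were low, at 5.08 to 5.43 over the 6 mice, and for neither ligand could signal over background be judged.

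The receptor for interferon gamma had chains that differed in direction. Ifngr2, its signalling chain, was 11.67, 11.64 and 11.66 in WT and 11.38, 11.38 and 11.46 in TG-17, without overlap and with a log2 fold change of -0.25 (SE 0.050, adjusted p = 0.224 by limma). Ifngr1, its ligand-binding chain, was 10.12, 10.29 and 10.15 in WT and 10.43, 10.36 and 10.44 in TG-17. It was also without overlap, with a log2 fold change of 0.22 (SE 0.064, adjusted p = 0.251 by limma). These were the receptor and kinase genes with an unadjusted p under 0.05, of 9 measured. Of all genes, 8.76% were lower and 6.65% higher at that p, which bears on the next lists too. Of 16 signal genes measured, 1 was higher and 1 lower at that p. They were Tlr7, a sensor of RNA in endosomes (log2 fold change 0.35), and Ciita, the transactivator of MHC class II and a relative of Nlrc5 (-0.24). Of 7 negative regulators 1, the RNA editing enzyme Adar, was lower at that p, with -0.14.

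Of 39 further interferon-stimulated genes measured, 5 were lower (12.8%) and 2 higher at an unadjusted p under 0.05, beside 8.76% and 6.65% of all genes. Those with the smallest p were Gbp7 (log2 fold change -0.21), Dtx3l, a ubiquitin ligase (0.31), Oas3 (-0.27) and the helicase Ddx60 (-0.16). Iigp1, a GTPase that attacks vacuoles of parasites, was chosen after its values were seen, for the widest difference in the list. It was 7.27, 8.29 and 8.17 in the WT mice and 7.05, 7.34 and 7.27 in the TG-17 mice, so that the first WT mouse lay among the TG-17 mice. Its log2 fold change was -0.69 (95% interval -1.35 to -0.03, adjusted p = 0.309 by limma). Among 14 further antigen presentation genes measured, 1 was lower and 1 higher at an unadjusted p under 0.05, beside the same 8.76% and 6.65%. Psme1, an activator of the proteasome, was lower at -0.21, and Pdia3, a chaperone of the peptide-loading complex, was higher at 0.25.

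Markers of leukocytes, which express many of the members, were read beside them. Of 38 markers measured (of 41 listed), 1 was lower at B above 0, Ly75, an endocytic receptor of dendritic cells, at 6.78, 6.91 and 6.80 in WT and 6.02, 6.12 and 6.26 in TG-17 (log2 fold change -0.70, adjusted p = 0.174 by limma). B of Ly75 was not above 0 without the second WT mouse or without the second TG-17 mouse. At an unadjusted p under 0.05, 6 markers (15.8%) were lower and 3 higher, beside 8.76% and 6.65% of all genes, and with centring on the array median 4 were lower and 5 higher, beside 4.04% and 12.9%.

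The summed linear level of the 6 dendritic cell markers was 362 to 393 in WT and 324 to 344 in TG-17, and without Ly75 it was 252 to 277 and 247 to 280. Of the 6, 4 had a lower mean in TG-17, and 2, Flt3 (log2 fold change 0.18) and Clec9a (0.21), a higher one. In 3, Ly75, Siglech (-0.22) and Itgax (-0.26), every TG-17 mouse lay below every WT mouse, against 13.6% of all genes. The 5 T cell markers summed to 350 to 359 in WT and 321 to 345 in TG-17. Of these, 4 had a lower mean in TG-17, where 55.6% of all genes had one. In 3 of the 5 every TG-17 mouse lay below every WT mouse, against 13.6% of all genes. They were Cd3e, a subunit of the T cell receptor complex (log2 fold change -0.27), Cd8a (-0.19) and Cd3d (-0.13). In 1, Cd4, every TG-17 mouse lay above (0.36), against 12.2% of all genes. The NK cell markers summed to 271 to 292 and 256 to 266, and the B cell markers to 146 to 166 and 140 to 144. Of the 6 NK cell markers, 4 had a lower mean in TG-17, with Gzmb, a granzyme, at a log2 fold change of -0.21, and 2 a higher one. The sums of all lists were taken without centring. Those of the lymphocytes rest partly on low values, with WT means of 4.51 for Cd79a and 4.41 for Klrk1, although Cd3e had 6.87. Signal over background could not be judged for them, so the sums do not count cells. The 13 macrophage and monocyte markers summed to 4470 to 4705 in WT and 4675 to 4927 in TG-17. Lyz2, a lysozyme, had a log2 fold change of 0.27, Cd14 had 0.18, and Cx3cr1, a chemokine receptor, had -0.36. Over all leukocyte markers the sums overlapped, at 6202 to 6462 and 6288 to 6597, and Ptprc (CD45), carried by all leukocytes, had a log2 fold change of 0.06. The sums of the ventricular cardiomyocyte, endothelial and fibroblast markers overlapped as well. The 3 markers of other organs measured, the liver gene Alb and the lung genes Sftpc and Sftpb, summed to 193 to 214 in WT and 180 to 190 in TG-17. Sftpc and Sftpb were both lower at an unadjusted p under 0.05, with log2 fold changes of -0.26 and -0.18. The part of these cell types and organs in the values of the members was not tested.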

How the data were processed

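RNA from the ventricles of 6 mice of postnatal day 17, 3 TG-17 and 3 WT, was measured on Affymetrix mouse gene ST arrays, with an array for each mouse. The deposited values are on the log2 scale, and the submitters' processing notes name RMA, which subtracts background, equalises the arrays by quantiles and combines the probes of a set. The version of RMA was not given in the sources used here. Values are therefore relative. The arrays still differed in scale: the median over all probe sets was 6.95, 6.95 and 6.93 in the WT mice and 6.91, 6.89 and 6.89 in the TG-17 mice. All 35556 probe sets were used, with 0 columns left out. Groups came from the labels, the line from the study's methods. The mice are separate animals, so the error is the spread between mice. Precision is limited by the number of arrays, which carry no counts.

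Probe sets were named by the platform annotation, with symbols updated by Entrez identifier: 21789 had 1 symbol, 1621 several and 12146 were unnamed. The comparison of TG-17 and WT used limma 3.58.1 (R 4.3.3; lmFit, then eBayes with no trend; two-sided; Benjamini-Hochberg over all probe sets; share of changed probe sets 0.01 for B). Unadjusted p under 0.05 was used for description. The script was tested on simulated data.

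The members and lists were chosen with earlier results of these data known. Members were described by mouse where they had B above 0, an unadjusted p under 0.05, no overlap, or were among the 5 most variable. Other genes were named mainly where they had B above 0 or were among the 4 with the smallest p under 0.05 in their list. Some T cell and dendritic cell markers were named beside these after seeing the data. Alternatives were a filter at a mean of 5, listed probe sets only, centring, robust moderation, another round of quantile normalization, a trend with intensity, the mouse number as a block, the mean of all probe sets of a gene, an assumed share of 0.05, and leaving out each mouse. The counts without overlap, the shifts by mouse, Mir499, the scalings of the pathway and leukocyte counts and the sum without Ly75 were added after seeing the data. Promoters (250 bases before to 50 after a start) were searched with Python 3.11.15.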

Additional observations from a re-analysis of the deposited data

How the results depend on the processing

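The number of members at B above 0 was 0 in all 15 alternatives, in which 29 to 714 of all probe sets had B above 0. The number of members at an adjusted p under 0.05 was 0 in the 14 that bear on it. With the replicate block, or without any 1 mouse other than TG-17 mouse 3, 0 of all 35556 probe sets had such an adjusted p. The count of members could not differ from 0 there. In the other settings 1 to 26 probe sets had it. Of 405 pairs of a member and a setting, 390 kept their direction and 15 had the other direction, with none passing B. With centring on the array median, members lower at an unadjusted p under 0.05 numbered 2 (Cd274 and Nlrc5), those without overlap 3 lower and 3 higher, and the median log2 fold change was -0.045. All genes moved alike, with 4.04% lower at that p, 6.65% lower and 21.7% higher without overlap and a median of 0.033. The gap between the medians stayed 0.078 by construction. Other pathway genes then numbered 0 lower at B above 0, with 12 higher against 6 lower at an unadjusted p below 0.05, and of the leukocyte markers 1 was higher at B above 0 and 5 were so at an unadjusted p below 0.05. With a second quantile normalization 2 members were lower at an unadjusted p under 0.05 (Cd274 and Nlrc5; 6.9%, beside 6.71% of all genes), the median was -0.047 (all genes -0.009), and 3 other pathway genes were higher. Centring changes the scale of each array by construction, and the cause of the other changes was not tested.

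Leaving out each mouse in turn left 1 to 4 members lower and 0 to 1 higher (B2m, without WT 2) at an unadjusted p under 0.05, beside 5.93% to 8.46% of all genes lower and 3.93% to 6.07% higher. The lowest count, 1, came without TG-17 mouse 2, and the count was 3 without WT 1. Members without overlap were 6 to 10 lower, the highest without WT 3, and 1 to 2 higher, and the shares of all genes were raised too, to 18.3% to 22.2% lower and 15.5% to 17.3% higher. The median ran from -0.100 to -0.039, the last without WT 2. Other pathway genes with B above 0 were 0 to 1 higher and 0 to 1 lower, and those with an unadjusted p under 0.05 were 6 to 11 lower, the lowest without WT 1. Leukocyte markers with B above 0 were 0 to 1 lower, and those with an unadjusted p under 0.05 were 2 to 5 higher and 3 to 6 lower, with 3 lower without WT 2, TG-17 mouse 2 or TG-17 mouse 3. The log2 fold change of Mir499 ran from 3.59 to 3.82, and its adjusted p (limma) was 0.00888 without TG-17 mouse 3 and 0.074 to 0.134 without any other mouse.

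The mouse numbers of the labels share no stated litter or batch, and mice of the same number did not deviate together (correlations of 0.024, -0.0004 and 0.057 across probe sets). With the replicate block, 3 members were lower at an unadjusted p under 0.05 (10.3%, beside 7.44% of all genes), 0 other pathway genes were lower at B above 0, and the log2 fold change of Mir499 stayed 3.67 with an adjusted p of 0.318 by limma. The deposited table gives no detection calls, so signal over background could not be judged.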
